A study of Homo sapiens with 14 samples.

Results

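The expression change between day 9 and day 12 of long-term colony culture was measured in 2 colorectal cancer cell lines, SW620 and SW620-TET2CD, by droplet single-cell RNA sequencing. SW620 is an established line from a lymph node metastasis of a colorectal adenocarcinoma. The library labelled SW620 came from cells carrying an empty FLAG vector, and SW620-TET2CD came from SW620 cells that overexpressed the catalytic domain of TET2, the enzyme that oxidises 5-methylcytosine. Both lines were grown for up to 15 days without passage, so every culture held colonies of unpassaged cells, and no drug was given in any group used here. The comparison was between 4 of the 14 samples of the series, 4 of its 8 single-cell libraries, while the fit also held the 4 libraries of day 6 and day 15, so that every SE and p-value rests on the spread over all 8. A fit on the 4 libraries of day 9 and day 12 alone, with 1 residual degree of freedom, made 8302 calls. Cells were kept when they held 200 to 4500 genes, 1000 to 20000 unique molecular identifiers (UMIs, each standing for 1 captured RNA molecule) and at most 10% of UMIs from mitochondrially encoded genes. These limits left 21780 cells of day 9 and day 12, out of 48282 cells kept over all 8 libraries. UMIs were added up over these cells within each library, and day 12 was set against day 9 with the line as a block. There was 1 library per line and day. The p-values therefore rest on the spread between libraries of 2 related lines, and day, culture handling and library preparation cannot be told apart. In a summed library, fewer cells of a kind and less RNA per cell cannot be told apart either.

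A cell line kept in a dish without passage becomes crowded, and its medium and oxygen supply then change with time. Cells that leave the cell cycle stop making the DNA replication machinery in S phase and the spindle and chromosome proteins of mitosis, whose genes are read through E2F factors and through the MYBL2 and FOXM1 complexes. Cells short of oxygen stabilise the alpha subunits of hypoxia-inducible factor (HIF), which bind a short DNA core, the hypoxia response element, and raise genes of glucose uptake, pH control and vessel growth.

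Day 9 gave 7509 and 6447 kept cells and day 12 gave 3930 and 3894, where each pair of values here and below names SW620 before SW620-TET2CD. They held 48186195 to 72557284 UMIs per library, and 3 counts in a library, taken as the floor, came to 0.0413 to 0.0623 counts per 1000000 UMIs (CPM). The limits did not act alike on the 2 days. The upper limits on genes and UMIs removed 0.849% and 11.7% of the barcodes of day 9 but 21.4% and 26.3% of those of day 12, and the mitochondrial limit removed 26.9% and 18.4% on day 9 and 10.0% and 13.8% on day 12. The median kept cell held 6640 and 11152 UMIs on day 9 and 13110.5 and 12379 on day 12. No doublet caller was run. Any pair of the 4 libraries shared 1 to 10 cell barcodes. The 13 colorectal epithelial markers took 1.16% to 1.40% of UMIs, with EPCAM at 526 to 588 CPM and KRT8 at 3552 to 4595 CPM in all 4 libraries, while CDX1, KRT20 and CEACAM5 were at or near 0. Fibroblast, endothelial, immune and erythroid markers took at most 0.00244% of UMIs per list, and the defining genes COL3A1, PDGFRA, KDR, PTPRC and HBB were at or near 0. The 4 neuronal markers took 0.0188% to 0.0277%, mostly from SYT1 and TUBB3. TET2 was at 59.9 and 37.9 CPM in the SW620-TET2CD libraries of day 9 and day 12 and at 2.46 and 3.73 CPM in the SW620 libraries, which is the order the labels give.

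Between day 9 and day 12 RNA of cell-cycle genes fell and RNA of the hypoxia response rose in both lines. All 66 mitosis genes and all 44 genes of origin licensing and the replication fork fell, and 42 of 50 HIF target genes outside glycolysis rose. Genes of the FOXO and starvation response, immediate early genes, integrins and secreted serine proteases were also mostly higher on day 12. Ribosome biogenesis, the proteasome, heat shock proteins and mitochondrial ribosomal proteins were mostly lower. Of 17478 genes tested with the quasi-likelihood F test of edgeR and Benjamini-Hochberg correction, 7348, or 42.0%, had an adjusted p under 0.05. On day 12, 3525 of them (20.2% of the genes tested) were higher and 3823 (21.9%) lower, and of these 1680 (9.61%) and 1131 (6.47%) changed at least 2-fold. With a background this wide, the counts of each list below are read against 20.2% higher and 21.9% lower. Both libraries of 1 day lay above both of the other in 74.3% of all tested genes. This held for 98.88% of genes called lower and 97.99% of those called higher, so below it adds little to a call. The median log2 fold change of all tested genes was 0.02. The share of calls that were higher was 48% with TMM factors, 65.2% with upper-quartile factors, which moved the median of all genes to 0.20, and 58.6% with library totals alone, which moved it to 0.14. Without the upper limits on genes and UMIs, 3038 of 18395 genes (16.5%) were higher and 2990 (16.3%) lower.

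**Figure D1:**
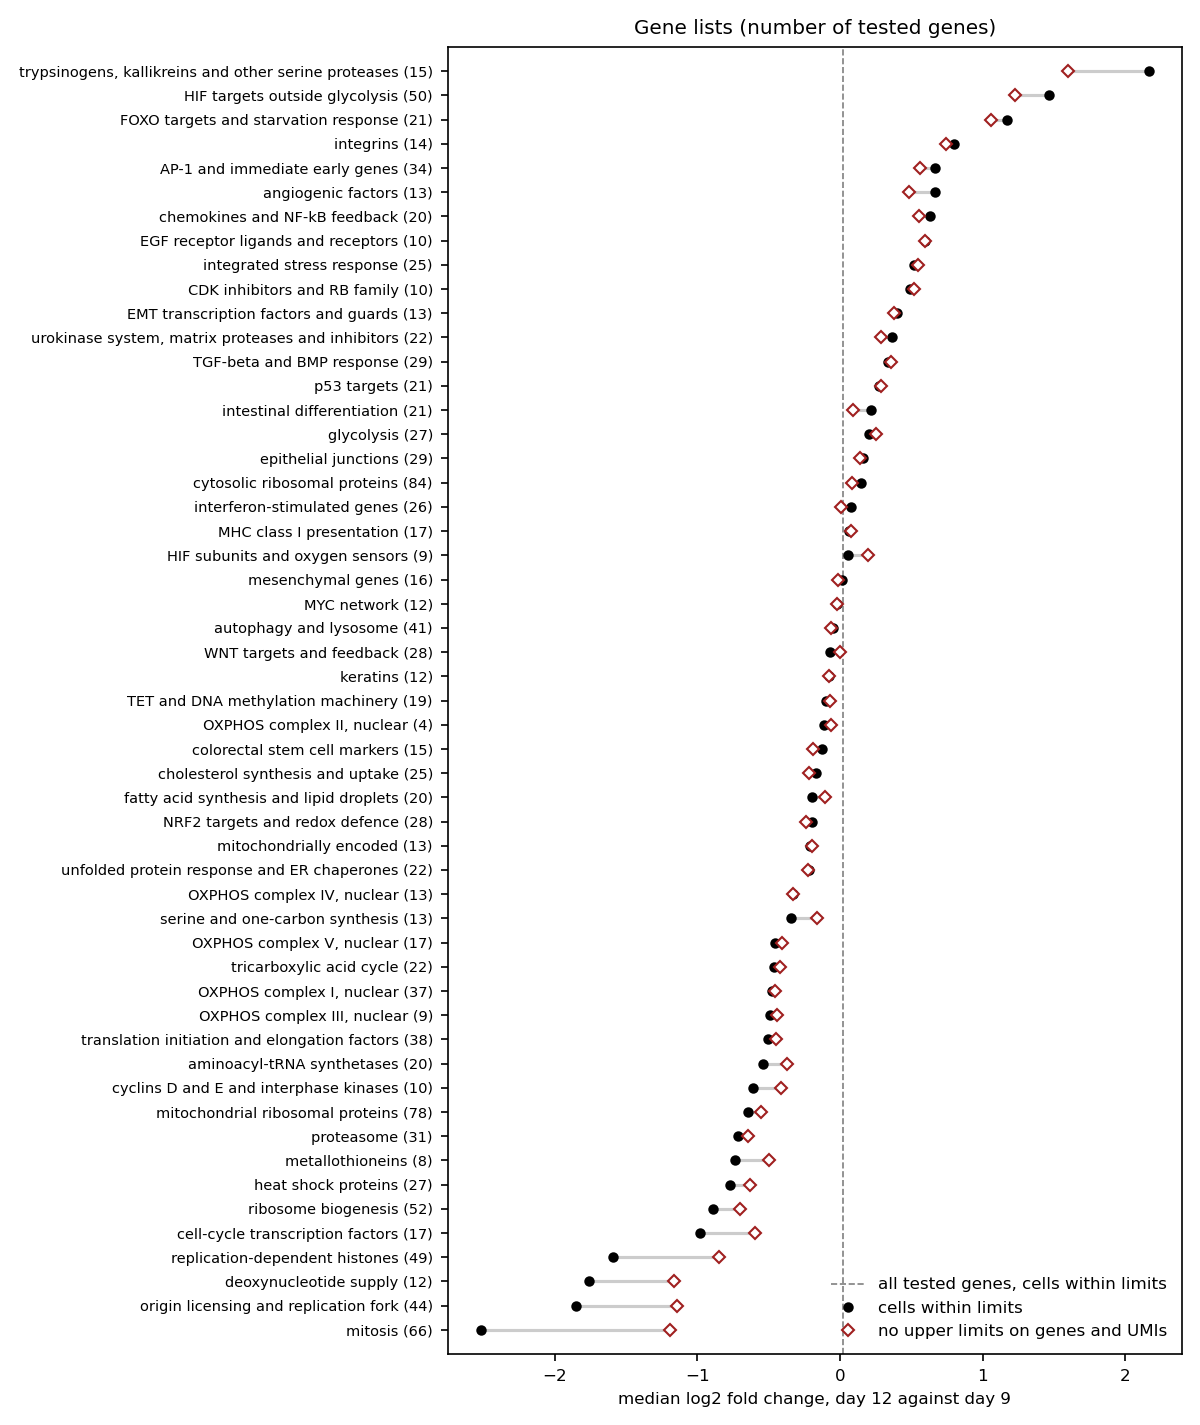
Median log2 fold change, day 12 against day 9, of the 53 gene lists (horizontal axis) within the cell limits (black dots) and without the upper limits on genes and UMIs (red diamonds), with the median of all tested genes as a dashed line. The mitosis list sat lowest at -2.52 within the limits and the list of secreted serine proteases highest at 2.16. With 1 CPM added before the ratio, the protease medians were 0.96 in SW620 and 0.74 in SW620-TET2CD. Those of HIF targets were then 0.97 and 1.24, so the top rank did not hold. The red diamonds of the mitosis and replication lists lay nearer to 0 than the black dots.

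Genes were ranked among calls with the same direction in both lines and a mean of at least 8 CPM over the 4 libraries. The 12 with the largest falls were genes of DNA replication and cell division. The largest fall was in MYBL2 (ENSG00000101057, chromosome 20), which encodes the B-MYB factor that drives late cell-cycle genes. MYBL2 was at 89.7 and 81.3 CPM on day 9 and at 4.43 and 10.8 CPM on day 12. Both day 12 values lay far below both day 9 values, an 11.6-fold fall with a log2 fold change of -3.54 ± 0.29 (SE, adjusted p = 1.17e-05 by edgeR's quasi-likelihood test). FOXM1, the forkhead factor of mitotic genes, was at 66.2 and 64.3 CPM and then at 3.58 and 10.2 CPM, a log2 fold change of -3.31. MKI67, which encodes the proliferation antigen Ki-67, was at 263 and 217 CPM and then at 17.7 and 39.9 CPM, a log2 fold change of -3.12 ± 0.28. PLK1, a kinase of mitotic entry, was at 93.9 and 67.9 CPM and then at 5.24 and 13.6 CPM, a log2 fold change of -3.14 ± 0.35. In each of these genes the day 12 value of SW620-TET2CD was the higher of the 2. The other large falls were in RRM2, AURKA, MCM10, GTSE1, ESCO2, ERCC6L, PIF1 and KIF23.

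By the same rule, the 12 largest rises were led by NDUFA4L2 (ENSG00000185633, chromosome 12), a mitochondrial protein made under low oxygen. It was at 7.02 and 3.58 CPM on day 9 and at 47.3 and 115 CPM on day 12. Its log2 fold change was 3.81 ± 0.43 (SE, adjusted p = 6.25e-05). LEMD1, a cancer-testis gene, was at 9.15 and 7.55 CPM and then at 131 and 79.3 CPM, a log2 fold change of 3.61. NRN1, which encodes the membrane-anchored protein neuritin, was at 2.67 and 1.97 CPM and then at 21.9 and 32.3 CPM, a log2 fold change of 3.55. In these 3 genes both day 12 values lay above both day 9 values. The pH regulator CA9, the stress gene NDRG1, the mTORC1 inhibitor DDIT4, the microRNA host transcript MIR210HG, the vessel growth factor VEGFA and the aldolase ALDOC were also among these 12, with TNNT1, SDCBP2 and the unnamed transcript AC008105.3.

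**Figure D2:**
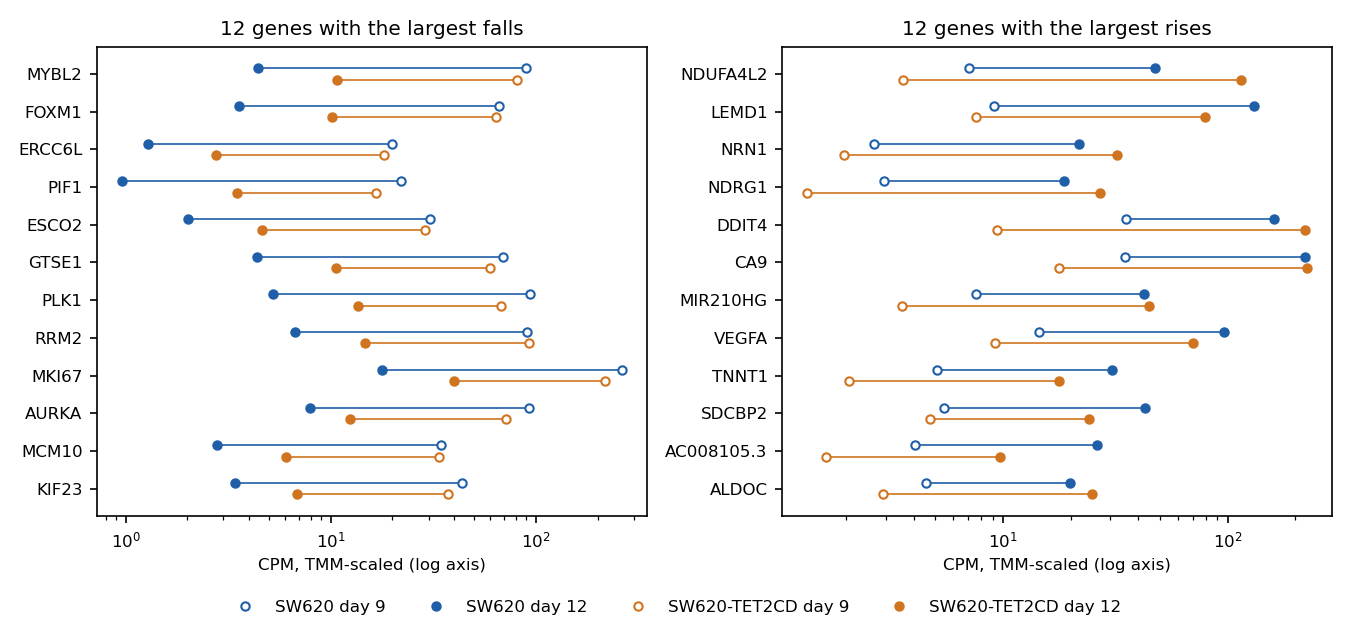
CPM on a log axis of the 12 genes with the largest falls and the 12 with the largest rises among those with a mean of at least 8 CPM, in the 4 libraries, with open symbols for day 9 and filled symbols for day 12. The genes were chosen as called and as changed the same way in both lines, which nearly fixes that the days stand apart. In every gene shown, both filled symbols lay on the same side of both open symbols, for example 4.43 and 10.8 CPM against 89.7 and 81.3 CPM in MYBL2.

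Many genes of the cell cycle and of the hypoxia response are known to be read from promoters with short shared letters. For this reason 3 promoters of genes that rose and 3 of genes that fell are printed. Whether such letters bear on the changes seen here was not tested. Each is the 250 bases before the RefSeq start of the gene in GRCh38.p14, 5′ to 3′ on the strand of the gene. In the first 3, capitals mark the core of the hypoxia response element, searched as ACGTG or GCGTG on both strands, so that CACGT and CACGC are its reverse forms. In ALDOC a run of CACGTG holds overlapping matches on the 2 strands. CA9 lies at chr9:35673678-35673927 on the plus strand, DDIT4 at chr10:72273674-72273923 on the plus strand and ALDOC at chr17:28576896-28577145 on the minus strand.
CA9: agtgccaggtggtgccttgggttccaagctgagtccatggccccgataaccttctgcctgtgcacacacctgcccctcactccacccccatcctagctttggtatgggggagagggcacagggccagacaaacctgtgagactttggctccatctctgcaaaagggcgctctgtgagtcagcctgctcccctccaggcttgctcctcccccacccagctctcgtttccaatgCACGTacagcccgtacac
DDIT4: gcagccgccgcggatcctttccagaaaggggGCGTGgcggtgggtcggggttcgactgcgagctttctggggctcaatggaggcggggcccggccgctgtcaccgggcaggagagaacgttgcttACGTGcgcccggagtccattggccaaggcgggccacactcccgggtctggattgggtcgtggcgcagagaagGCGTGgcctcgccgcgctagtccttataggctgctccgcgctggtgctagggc
ALDOC: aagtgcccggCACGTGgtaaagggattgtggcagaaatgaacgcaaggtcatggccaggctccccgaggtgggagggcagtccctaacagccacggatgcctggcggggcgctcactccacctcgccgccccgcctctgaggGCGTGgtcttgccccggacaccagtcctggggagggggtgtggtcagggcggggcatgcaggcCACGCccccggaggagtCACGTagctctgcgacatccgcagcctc

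The next 3 belong to genes that fell, with capitals on the cell-cycle homology region (CHR, searched as TTTGAA) and the CCAAT box (CCAAT, or ATTGG in reverse) in PLK1 and MKI67, and on an E2F site (TTCCCGC or TTGGCGC) and the CCAAT box in ORC1, all on both strands. ORC1, the largest subunit of the origin recognition complex, was chosen after its values were seen. PLK1 lies at chr16:23678639-23678888 on the plus strand, MKI67 at chr10:128126424-128126673 on the minus strand and ORC1 at chr1:52404424-52404673 on the minus strand. In MKI67 the second CHR and a reversed CCAAT box overlap in 1 run, and in ORC1 the E2F site and a reversed CCAAT box do. Capitals mark only the letters named for each gene. The hypoxia core letters also occur, in lower case, in PLK1, MKI67 and ORC1. Letters of the CCAAT box likewise occur in lower case in CA9 and DDIT4.
PLK1: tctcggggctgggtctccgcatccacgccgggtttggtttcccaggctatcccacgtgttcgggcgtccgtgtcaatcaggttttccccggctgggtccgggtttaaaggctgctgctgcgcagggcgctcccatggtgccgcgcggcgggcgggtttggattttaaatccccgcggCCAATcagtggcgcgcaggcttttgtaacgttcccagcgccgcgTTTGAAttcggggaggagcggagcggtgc
MKI67: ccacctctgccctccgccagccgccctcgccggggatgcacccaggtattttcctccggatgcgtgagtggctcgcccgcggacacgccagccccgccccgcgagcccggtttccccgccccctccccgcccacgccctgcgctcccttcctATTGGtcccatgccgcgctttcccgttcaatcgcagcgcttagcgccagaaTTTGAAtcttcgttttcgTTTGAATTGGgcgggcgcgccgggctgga
ORC1: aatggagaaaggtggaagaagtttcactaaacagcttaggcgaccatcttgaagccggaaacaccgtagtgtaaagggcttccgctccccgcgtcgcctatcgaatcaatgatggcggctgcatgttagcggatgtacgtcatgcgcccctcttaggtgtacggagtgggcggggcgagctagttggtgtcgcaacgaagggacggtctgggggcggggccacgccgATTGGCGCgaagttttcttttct

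A window was found for 57 of the 66 tested mitosis genes, and the CHR was in 28 of them (49.1%) and the CCAAT box in 43 (75.4%). Over all 27305 windows the CHR was in 13.6% and the CCAAT box in 33%, and over the 11948 tested genes with a window in 8.53% and 34.8%. Of the 39 windows of replication genes, 16 (41%) held the E2F letters, against 7.95% of all windows and 12.1% of those of tested genes, and 0 held the CHR. Of the 41 windows of HIF target genes outside glycolysis, 33 (80.5%) held the hypoxia response element core, against 43.1% of all windows and 56% of those of tested genes, and in glycolysis genes it was in 14 of 25 (56%). The same core was in 66.7% of the mitosis windows and 64.1% of the replication windows, genes that fell. Only 68.4% of tested genes had a window, against 86.4% of mitosis, 88.6% of replication and 82% of HIF target genes. Every comparison here was therefore uneven in coverage, and none was tested. Of genes called at least 2-fold higher 58% had a window, and 48.7% of those windows held the hypoxia core. Of genes called at least 2-fold lower 76.5% had one, with the core in 58.8%. A match is a description of letters in a window, not a site that a factor was shown to occupy.

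The machinery that copies DNA was lower on day 12 in every member measured. All 44 genes of origin licensing and the replication fork fell, 42 of them at least 2-fold, with a median log2 fold change of -1.85. MCM10, which recruits polymerase to the opened origin, was at 34.4 and 33.9 CPM on day 9 and at 2.79 and 6.02 CPM on day 12, a log2 fold change of -3.01 ± 0.23 (SE, adjusted p = 1.09e-05). CLSPN, the checkpoint adaptor claspin, was at 105 and 106 CPM and then at 7.65 and 20.7 CPM. CDC45, a subunit of the replicative helicase, was at 32.3 and 31.4 CPM and then at 2.49 and 6.94 CPM. ORC1, whose promoter is printed above, was at 11.8 and 11.3 CPM and then at 1.24 and 2.55 CPM. The libraries of the 2 days did not overlap in any of these. Of 12 genes that supply deoxynucleotides, 11 fell and 1, the kinase gene CMPK1, rose. RRM2, the regulated subunit of ribonucleotide reductase, was at 90.4 and 92.5 CPM and then at 6.73 and 14.7 CPM. TK1, thymidine kinase, was at 134 and 116 CPM and then at 11.5 and 31.7 CPM, and TYMS, thymidylate synthase, at 136 and 135 CPM and then at 19.6 and 36.3 CPM.

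Histone genes that are made with DNA replication fell in 41 of 49 tested, with a median of -1.59. Their transcripts mostly lack a poly(A) tail, which the assay uses for capture, and several are near-identical copies, so their levels are uncertain. HIST1H3G was at 14.8 and 12.6 CPM and then at 0.999 and 2.63 CPM. The 3 histone genes that rose were HIST1H2BD, HIST1H2AC and HIST2H2BE. HIST1H2BD was at 10.1 and 8.97 CPM and then at 24.8 and 21.1 CPM, which put both day 12 libraries above both day 9 libraries.

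All 66 mitosis genes fell, 64 of them at least 2-fold, and their median log2 fold change of -2.52 was the lowest of the 53 lists. AURKA, the spindle pole kinase Aurora A, was at 92.5 and 71.9 CPM on day 9 and at 7.93 and 12.5 CPM on day 12, a log2 fold change of -3.04. KIF23, a kinesin of cytokinesis, is counted among the largest falls and was at 43.7 and 37.2 CPM and then at 3.41 and 6.86 CPM. ERCC6L, a helicase of anaphase bridges that is not in the list, was at 19.8 and 18.1 CPM and then at 1.28 and 2.77 CPM. Day 9 and day 12 stood apart in each. Of 17 cell-cycle transcription factors and their partners, 13 fell and none of the other 4 rose. E2F8, a repressor made in S phase, was at 8.16 and 9.98 CPM and then at 0.754 and 1.27 CPM.

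These falls were smaller when the barcodes above the upper limits were kept, and the part of those limits in the cell-cycle result was not tested. The mitosis list took 0.569% and 0.503% of UMIs on day 9 and 0.102% and 0.17% on day 12 within the limits. Without the upper limits it took 0.572% and 0.563% on day 9 and 0.223% and 0.349% on day 12. The replication list took 0.303% and 0.313% and then 0.0836% and 0.124% within the limits, and 0.303% and 0.315% and then 0.126% and 0.189% without the upper ones. In every such pair both day 12 shares stayed below both day 9 shares. Without the upper limits the median of the mitosis list was -1.20 and that of the replication list -1.14, with all 66 and 43 of 44 genes still called lower. MYBL2 then had a log2 fold change of -2.16, MCM10 of -1.64 and MKI67 of -1.57.

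Within the cell limits, the lower share of mitosis RNA was also seen cell by cell. The upper limits removed more barcodes on day 12 than on day 9, and the per-cell values leave those barcodes out. With each cell thinned to 2000 UMIs, the median cell had 0.40% and 0.35% of its UMIs in the mitosis list on day 9 and 0.05% and 0.05% on day 12. The cell at the 90th percentile had 1.20% and 1.05% on day 9 and 0.15% and 0.40% on day 12. Of the day 12 cells, 1.08% and 2.84% lay above the 90th percentile of the same line on day 9. The thinning used 7472 and 6377 cells of day 9 and 3908 and 3876 cells of day 12, and 18 to 70 cells per library were too shallow to enter. Cells of 1 library are not replicates, so these values carry no test.

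**Figure D3:**
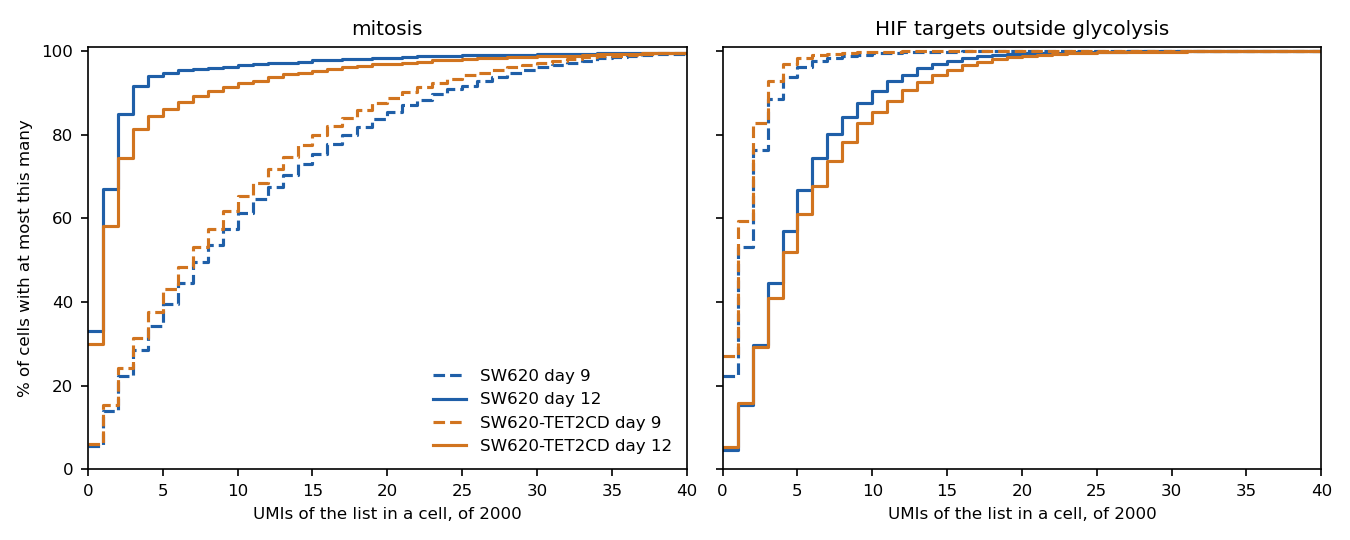
Cumulative percent of cells (vertical axis) holding at most the given number of UMIs of a list among 2000 UMIs per cell (horizontal axis), for the mitosis list and the HIF targets outside glycolysis, by line, with day 9 dashed and day 12 solid. All cells shown were within the cell limits. For mitosis the day 12 curves rose first, with a median of 0.05% against 0.40% and 0.35% of UMIs on day 9, and for HIF targets they rose last, with a median of 0.20% against 0.05%.

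Cyclins, kinases and their inhibitors, which gate entry to S phase, did not move as 1 block. Of 10 genes of cyclins D and E, cyclin G and the interphase kinases, CCNE1, CCNE2, CCND3, CDK2 and CDK4 fell and CCNG1 and CCNG2 rose. CCNE1, the cyclin of S phase entry, was at 4.82 and 6.45 CPM on day 9 and at 0.942 and 1.63 CPM on day 12. CCNG2, a cyclin of arrested cells, was at 5.87 and 5.82 CPM and then at 14.5 and 16.9 CPM. Neither gene overlapped between the days. CCND1, cyclin D1 and a WNT target that the study followed, was at 230.2 and 218 CPM and then at 224 and 202 CPM, which overlapped (log2 fold change -0.07 ± 0.16, adjusted p = 0.734). Its sign turned with the scaling, to 0.10 with upper-quartile factors and 0.05 with library totals.

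Of 10 CDK inhibitors and RB family genes, CDKN1A, CDKN1B, CDKN1C, CDKN2B and RBL2 rose and CDKN2C and RBL1 fell. CDKN1C, which encodes p57, was at 16.8 and 14.7 CPM on day 9 and at 48.4 and 39.2 CPM on day 12, a log2 fold change of 1.47 (adjusted p = 2.76e-05 by edgeR). CDKN2B, which encodes p15, was at 8.78 and 9.04 CPM and then at 23.3 and 21.9 CPM. RBL1, the pocket protein p107 and itself an E2F target, was at 14.7 and 14.7 CPM and then at 3.86 and 5.71 CPM. Each had both day 12 values on 1 side of both day 9 values.

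With TMM factors and unthinned cells, the HIF target genes outside glycolysis were the list that rose most often, in 42 of 50 tested. In 33 the rise was at least 2-fold, 0 fell, and the median log2 fold change was 1.46. With upper-quartile factors 43 rose, against 13 of 14 integrins and 19 of 21 FOXO and starvation genes. With thinned cells 41 rose, against 12 of 14 integrins. Of the 52 in the list, LOX and STC1 were too low to test. CA9, the carbonic anhydrase that hypoxic tumour cells place on their surface, was at 34.9 and 17.8 CPM on day 9 and at 220.3 and 225 CPM on day 12. It rose 9.13-fold, a log2 fold change of 3.19 ± 0.25 (SE, adjusted p = 1.09e-05). VEGFA was at 14.5 and 9.23 CPM and then at 96.5 and 70.3 CPM, a log2 fold change of 2.83 ± 0.14 (adjusted p = 2.55e-06). NDRG1 was at 2.95 and 1.34 CPM and then at 18.7 and 27.0 CPM. DDIT4 was at 35.2 and 9.38 CPM and then at 161 and 221 CPM, a log2 fold change of 3.35 ± 0.42 (adjusted p = 1.18e-04). The SW620 library of day 9 was above that of SW620-TET2CD in all 4, and no day 9 value reached a day 12 value.

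This list moved less with the upper limits than the cell-cycle lists did. It took 0.0847% and 0.0709% of UMIs on day 9 and 0.232% and 0.255% on day 12 within the limits, and 0.0848% and 0.0709% and then 0.209% and 0.213% without the upper ones. Without them 41 genes rose and 0 fell, with a median of 1.22. Per cell within the limits and thinned to 2000 UMIs, the median share was 0.05% in both lines on day 9 and 0.20% in both on day 12. On day 12, 43.1% of SW620 cells and 59.0% of SW620-TET2CD cells lay above the 90th percentile of their own line on day 9. That percentile was 0.20% of UMIs in SW620 and 0.15% in SW620-TET2CD, so these 2 values do not compare the lines.

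Of 9 tested genes of the HIF subunits and the oxygen sensors, EGLN1, EGLN3 and EPAS1 rose and HIF1A and EGLN2 fell. HIF1A, the regulated alpha subunit, was at 45.3 and 49.5 CPM on day 9 and at 29.1 and 36.8 CPM on day 12, a log2 fold change of -0.53 (adjusted p = 0.00735 by edgeR). EGLN3, a prolyl hydroxylase that marks HIF for breakdown and is itself a HIF target, was at 28.8 and 11.9 CPM and then at 103 and 118 CPM. EPAS1, which encodes HIF-2 alpha, stayed under 0.5 CPM in all 4 libraries, from 0.0781 and 0.0832 to 0.471 and 0.353. The days did not overlap in any of these. Among 13 tested angiogenic factors 7 rose and 2, NRP1 and SEMA3C, fell. EFNA1, an ephrin ligand, was at 9.87 and 7.80 CPM and then at 37.2 and 24.9 CPM, and ADM, the vasodilator peptide adrenomedullin, at 3.53 and 5.13 CPM and then at 10.7 and 14.2 CPM.

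Of 27 glycolysis genes tested, 10 rose, and 4, the lactate transporter SLC16A1, PKM, LDHB and PYGB, fell, with a median of 0.20. The number called lower was 1 without the upper limits, with every barcode, with a mitochondrial limit of 20% or with upper-quartile factors, and 9, 9, 9 and 14 rose. The glucose transporter SLC2A1 was at 237 and 176 CPM on day 9 and at 632 and 517 CPM on day 12, a log2 fold change of 1.48. SLC2A3, a glucose transporter of higher affinity, was at 22.8 and 9.20 CPM and then at 51.3 and 42.2 CPM. ALDOC, the aldolase of the printed promoter, was at 4.57 and 2.91 CPM and then at 19.9 and 24.9 CPM, a log2 fold change of 2.61. PKM, pyruvate kinase, was at 1264 and 1008 CPM and then at 700.3 and 862 CPM (log2 fold change -0.53, adjusted p = 0.0498). Day 9 and day 12 did not overlap in these 4 genes.

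The nuclear genes of oxidative phosphorylation were lower or not called. Of the tested members, 21 of 37 fell for complex I, 1 of 4 for complex II, 6 of 9 for complex III, 6 of 13 for complex IV and 9 of 17 for complex V. ATP5MC1, a subunit of the ATP synthase ring, was at 285 and 266 CPM on day 9 and at 91.7 and 120.5 CPM on day 12, a log2 fold change of -1.38 (adjusted p = 1.42e-04). NDUFS6, a subunit of complex I, was at 721 and 675 CPM and then at 264 and 307 CPM. Among the 13 mitochondrially encoded genes MT-ATP8 and MT-ND4L rose and 0 fell, while the median was -0.21, 3 of 13 were positive, and the list took 7.54% and 7.19% of UMIs on day 9 and 6.13% and 6.61% on day 12. The cell limit on mitochondrial UMIs acts on these genes directly. In the tricarboxylic acid cycle 15 of 22 fell and 0 rose. With upper-quartile factors the falls numbered 3 for complex IV, 4 for complex V and 8 for the cycle, and 1 gene of each complex rose, while without the upper limits they numbered 4, 6 and 9. Of 78 mitochondrial ribosomal proteins 55 fell and 1, MRPL10, rose, with a median of -0.64. MRPL23 was at 171 and 138 CPM and then at 36.3 and 64.5 CPM. Both days stood apart in each of these genes.

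Cytosolic ribosomal protein genes were mostly not called, while ribosome biogenesis genes were mostly lower. Of 84 tested ribosomal protein genes, RPL23A, RPL31, RPL22L1 and RPS29 rose and RPS26, RPL26L1 and RPL7L1 fell, with a median of 0.15. The number that rose was 20 with upper-quartile factors and 32 with library totals, where 28.8% and 23.4% of all genes tested were higher. It was 2 without the upper limits and 1 with every barcode. The list took 25.5% and 24.6% of UMIs on day 9 and 30.3% and 28.8% on day 12, and 50.1% and 48.8% of thinned day 12 cells lay above the 90th percentile of their line on day 9. Of 52 ribosome biogenesis genes 48 fell, 21 of them at least 2-fold, and 0 rose, with a median of -0.89 within the limits and -0.70 without the upper ones. TCOF1, the nucleolar factor treacle, was at 101.3 and 90.8 CPM on day 9 and at 21.5 and 28.9 CPM on day 12, a log2 fold change of -1.94 (adjusted p = 1.19e-05 by edgeR). UTP20, a subunit of the small subunit processome, was at 38.3 and 38.7 CPM and then at 10.7 and 14.6 CPM. In thinned cells the biogenesis list took a median of 0.85% of UMIs in both lines on day 9 and 0.45% and 0.55% on day 12. Of 12 genes of the MYC network, MYC, MXD1 and MXI1 (25%) rose, near the share over all genes, and MXD3 fell. MYC itself, which drives ribosome biogenesis, was at 99.5 and 106 CPM and then at 141 and 152 CPM, while MXI1, an antagonist of MYC, was at 9.56 and 7.60 CPM and then at 27.3 and 30.7 CPM.

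Translation factors fell in 21 of 38 and rose in 2, EIF2S3 and EIF3E, or in 9 with upper-quartile factors. EIF5A, the factor that carries hypusine, was at 1207 and 1186 CPM on day 9 and at 379 and 542 CPM on day 12. Aminoacyl-tRNA synthetases fell in 14 of 20, or in 9 without the upper limits, and rose in 0. Chaperones fold proteins and the proteasome destroys them. Heat shock proteins fell in 20 of 27 with 0 higher and a median of -0.77, and proteasome genes fell in 25 of 31 with 0 higher and a median of -0.72. HSP90AA1 was at 2992 and 2965 CPM and then at 1138 and 1305 CPM, a log2 fold change of -1.29. PSMC3, an ATPase of the proteasome cap, was at 207 and 182 CPM and then at 59.1 and 80.2 CPM. No day 12 value of these reached a day 9 value.

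Stress pathways moved in part. In the integrated stress response, which ATF4 runs, 12 of 25 rose and 3, ATF5, SLC7A5 and SLC3A2, fell. GDF15, a stress cytokine, was at 70.4 and 45.3 CPM on day 9 and at 258 and 177 CPM on day 12, a log2 fold change of 1.92 (adjusted p = 3.25e-05). ATF3 was at 9.11 and 13.0 CPM and then at 37.4 and 28.2 CPM. Both genes were apart between the days. Serine and one-carbon synthesis, which ATF4 is also known to raise, fell in 6 of 13 and rose in 1. MTHFD1, an enzyme of folate interconversion, was at 87.3 and 85.2 CPM and then at 26.8 and 30.7 CPM. Among endoplasmic reticulum chaperones and unfolded protein response genes 6 of 22 rose and 8 fell, or 5 with upper-quartile factors. DNAJB9 was at 3.79 and 4.10 CPM and then at 11.2 and 9.59 CPM, whereas calreticulin, CALR, was at 511 and 505 CPM and then at 162 and 258 CPM. Of 21 p53 targets 7 rose and 5 fell, with BBC3, the death gene PUMA, at 2.21 and 1.28 CPM and then at 16.0 and 11.4 CPM.

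FOXO targets and starvation genes rose in 17 of 21, 13 of them at least 2-fold, and none fell, with a median of 1.17 within the limits and 1.06 without the upper ones. DEPP1, a FOXO target of fasting, was at 1.11 and 0.554 CPM on day 9 and at 17.3 and 10.9 CPM on day 12, a log2 fold change of 4.11 (adjusted p = 6.31e-07). TXNIP, which restrains glucose uptake, was at 212 and 207 CPM and then at 1167 and 659 CPM, a log2 fold change of 2.08. YPEL5 was at 9.23 and 9.90 CPM and then at 41.2 and 33.0 CPM. The days did not overlap in any of the 3. Of 41 autophagy and lysosome genes 8 (19.5%) were higher and 8 lower, near the shares over all genes. The number that rose was 15 with upper-quartile factors and 5 with every barcode. GABARAPL1, a protein of the autophagosome, was at 1.97 and 2.15 CPM and then at 9.40 and 10.5 CPM. WIPI1, which binds the forming autophagosome, was at 3.32 and 3.34 CPM and then at 12.8 and 13.1 CPM. CTSA, a lysosomal protease, was at 71.3 and 65.7 CPM and then at 27.0 and 31.0 CPM.

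The shares of lipid genes that rose were 20% in both lists, the same as over all genes. Cholesterol synthesis and uptake genes fell in 9 of 25 and rose in 5, among them SC5D, INSIG1, STARD4 and MSMO1. Fatty acid and lipid droplet genes fell in 7 of 20 and rose in 4, SREBF1, PNPLA2, ACSS2 and G0S2. With upper-quartile factors 8 cholesterol genes rose and 5 fell and 6 fatty acid genes rose and 5 fell, so neither direction held across scalings. FASN, fatty acid synthase, was at 129 and 129 CPM on day 9 and at 46.2 and 66.5 CPM on day 12, a log2 fold change of -1.21. NRF2 targets and redox genes fell in 10 of 28 and rose in 1, the cystine transporter SLC7A11. Of 8 metallothioneins tested, MT1A, MT1E, MT1G, MT1M and MT1X fell, while MT3 was at 0.624 and 0.582 CPM and then at 3.49 and 5.35 CPM. Neither FASN nor MT3 overlapped between the days.

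Immediate early and AP-1 genes, which growth factor and stress signals switch on within minutes, were higher on day 12 in 23 of 34, with a median of 0.66. The gene that fell was FOSL1. The number that fell was 0 without the upper limits, with every barcode, with a mitochondrial limit of 20%, with upper-quartile factors or with library totals. JUN was at 618 and 596 CPM on day 9 and at 1024 and 854 CPM on day 12, a log2 fold change of 0.62 (adjusted p = 0.0121). EGR3 was at 3.63 and 4.17 CPM and then at 19.8 and 13.4 CPM. ZFP36, which destroys AU-rich transcripts, was at 3.86 and 7.04 CPM and then at 30.0 and 19.6 CPM. In these 3 the SW620 library of day 12 was the highest of the 4. In thinned cells the list took a median of 0.35% and 0.40% of UMIs on day 9 and 0.70% and 0.55% on day 12.

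Of the EGF receptor family and its ligands, HBEGF, TGFA, ERBB2, ERBB3 and the receptor's inhibitor ERRFI1 rose and EREG fell, of 10 tested. ERRFI1 was at 9.29 and 6.65 CPM on day 9 and at 50.7 and 37.7 CPM on day 12. Chemokines and NF-kB feedback genes rose in 9 of 20 and 3, TNFAIP2, NFKB1 and TNFRSF21, fell. TNFAIP3, the NF-kB inhibitor A20, was at 1.13 and 1.89 CPM and then at 5.97 and 7.06 CPM, and CXCL8 at 4.10 and 4.78 CPM and then at 12.5 and 15.8 CPM. TNFAIP2 was at 1.70 and 11.2 CPM and then at 1.07 and 5.16 CPM, and its groups overlapped because SW620 stood below SW620-TET2CD on both days. Of 26 interferon-stimulated genes 5 (19.2%) were higher, IFI35, IFIT2, IRF9, ISG20 and STAT2, and 4 (15.4%) lower, among them OAS2, OAS3 and USP18, shares near or under those of all genes. ISG20, an exonuclease, was at 10.2 and 9.72 CPM and then at 53.9 and 58.6 CPM, while OAS3, a sensor of viral RNA, was at 9.85 and 9.83 CPM and then at 1.45 and 2.78 CPM. For MHC class I presentation HLA-B, HLA-E and HLA-F rose and PSMB10, PSME2 and TAP2 fell, of 17. These shares, 17.65% each, were under those of all genes, and 6 rose with upper-quartile factors.

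Integrins, the receptors for matrix, were mostly higher on day 12. Of 14 tested integrins 11 rose and 1, ITGAE, fell, with a median of 0.80. ITGA5, the fibronectin receptor subunit, was at 3.14 and 1.23 CPM on day 9 and at 15.3 and 12.0 CPM on day 12, a log2 fold change of 2.72. In the urokinase and matrix protease list 6 of 22 (27.3%) rose, among them ADAM8, ADAM17, MMP14, PLAUR and SERPINE2, or 11 with upper-quartile factors, and 0 fell. The fit on the 4 libraries of day 9 and day 12 alone called 11 higher and 3 lower. PLAUR, the urokinase receptor, was at 2.89 and 3.06 CPM and then at 21.9 and 10.5 CPM, and SERPINE2, a protease inhibitor, at 11.4 and 9.83 CPM and then at 58.7 and 24.9 CPM. Trypsinogens, kallikreins and other serine proteases rose in 12 of 15 tested, all at least 2-fold, with a median of 2.16 within the limits and 1.59 without the upper ones. With 1 CPM added before the ratio, their median was 0.96 in SW620 and 0.74 in SW620-TET2CD. PRSS22, a tryptase-like protease, was at 0.761 and 0.832 CPM and then at 7.86 and 6.02 CPM, and KLK11 at 1.33 and 0.430 CPM and then at 11.4 and 2.51 CPM. PRSS1 and PRSS2 are near-identical copies whose reads could be split, so their values are uncertain. No day 9 value of the genes given here reached a day 12 value.

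No epithelial junction or keratin gene was called lower in the fit on all 8 libraries. The fit on the 4 libraries of day 9 and day 12 alone called 2 junction genes lower, and that on thinned cells 1. Of 29 junction genes 9 rose and 0 fell, with a median of 0.16, and of 12 keratins KRT15, KRT17, KRT23 and KRT86 rose, or 2 with every barcode, and 0 fell. The keratin median was -0.08, and the keratin share of UMIs went from 1.37% and 1.13% on day 9 to 1.15% and 1.25% on day 12, so the days overlapped. CDH1, E-cadherin, was at 30.8 and 39.2 CPM on day 9 and at 58.3 and 69.7 CPM on day 12, a log2 fold change of 0.87 (adjusted p = 4.31e-04). CLDN4, a tight junction claudin, was at 68.8 and 62.5 CPM and then at 160.4 and 116 CPM. Both were apart between the days, whereas KRT86 overlapped, at 4.995 and 3.56 CPM and then at 9.01 and 4.92 CPM. Of 13 tested transcription factors of the epithelial-mesenchymal transition and their epithelial opponents, SNAI1, SNAI3, ELF3, EHF and KLF4 rose and ESRP2 fell. With upper-quartile factors 7 of the 13 rose. SNAI1, which represses CDH1, was at 5.27 and 6.71 CPM and then at 10.8 and 9.80 CPM, a log2 fold change of 0.77 (adjusted p = 0.00356). ZEB1 was at 9.02 and 7.78 CPM and then at 12.1 and 9.26 CPM, which did not pass the test (log2 fold change 0.35 ± 0.15, adjusted p = 0.0873). Of 16 mesenchymal genes TGFBI rose and TNC fell, with a median of 0.01.

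VIM, the mesenchymal filament vimentin, was at 433 and 301 CPM on day 9 and at 313 and 301 CPM on day 12 and was not called (log2 fold change -0.22 ± 0.24, adjusted p = 0.489). It was lower on day 12 in SW620 and at the same level in SW620-TET2CD, and without the SW620 library of day 12 the fitted value was 0.02. FN1, fibronectin, was at 4.98 and 3.06 CPM and then at 8.01 and 3.78 CPM, with overlapping days (adjusted p = 0.134). TGFB1 was at 40.5 and 32.3 CPM and then at 49.7 and 41.9 CPM (log2 fold change 0.34 ± 0.14, adjusted p = 0.0817). Among 29 tested genes of the TGF-beta and BMP response 11 rose and 3, BMP4, BMP7 and ID2, fell. SMAD6, an inhibitory SMAD, was at 11.2 and 13.1 CPM and then at 45.9 and 28.5 CPM, both day 12 values being the higher.

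WNT targets rose in 7 of 28 (25%), near the 20.2% over all genes, and none of them changed 2-fold. EPHB2 and EPHB3 fell, and the median was -0.07. With a mitochondrial limit of 20%, 5 rose. SOX9 was at 111 and 144 CPM on day 9 and at 237 and 230 CPM on day 12, and APCDD1, a WNT inhibitor, at 22.3 and 21.3 CPM and then at 43.4 and 39.0 CPM. TCF7L1, a repressor of WNT targets, was at 3.04 and 2.77 CPM and then at 3.86 and 4.53 CPM (log2 fold change 0.53, adjusted p = 0.0424). CTNNB1, which encodes beta-catenin, was at 119 and 156 CPM and then at 108 and 152 CPM, with overlapping days and adjusted p = 0.709. Its fitted change of -0.09 ± 0.17 turned to 0.09 with upper-quartile factors and 0.03 with library totals. PPARD, at 3.00 and 3.49 CPM and then at 3.03 and 3.35 CPM, and EPCAM also overlapped and were not called.

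Markers of the intestinal lineages were mostly low. Of 21 tested differentiation genes 8 rose and 2 fell. TFF3, the goblet cell trefoil peptide, was the highest named, at 484 and 365 CPM on day 9 and at 1359 and 943 CPM on day 12, a log2 fold change of 1.43 (adjusted p = 8.42e-05). TFF1 was at 1.46 and 1.54 CPM and then at 7.25 and 7.73 CPM. Of 15 stem cell markers PROM1, SMOC2 and SOX9 (20%) rose, near the share over all genes. ALDH1A1, ALDH1B1, EPHB2, POU5F1 and SOX2 (33.3%) fell. SOX2 was at 123 and 176 CPM and then at 24.1 and 65.5 CPM, a log2 fold change of -1.87, and PROM1, which encodes CD133, was at 6.22 and 9.36 CPM and then at 17.6 and 22.4 CPM. Day 9 and day 12 did not overlap in these 4 genes.

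TET2 itself was not called. It was at 2.46 and 59.9 CPM on day 9 and at 3.73 and 37.9 CPM on day 12, so the lines were far apart and the days overlapped (log2 fold change -0.10 ± 0.41, adjusted p = 0.862). The fitted sign turned under other scalings, to 0.07 with upper-quartile factors and 0.03 with library totals. The counts do not separate the TET2CD transgene from the endogenous gene. Of 19 TET and DNA methylation genes, TET1, CXXC4, GADD45A and GADD45B (21.05%) rose, near the share over all genes, and 6 (31.58%) fell. DNMT1, the maintenance methyltransferase that acts at replication, was at 203 and 184 CPM and then at 44.2 and 64.3 CPM, a log2 fold change of -1.85. UHRF1, its partner at the fork, was at 47.0 and 56.4 CPM and then at 6.41 and 14.2 CPM. TET1 was at 36.6 and 34.7 CPM and then at 47.6 and 51.3 CPM. Of the genes the study names as TET2 targets, VEGFA is given above with the HIF targets, RORA was at 4.12 and 3.19 CPM and then at 7.12 and 8.73 CPM (log2 fold change 1.12, adjusted p = 0.00499), and SPARC had 0 counts in all 4 libraries, so at most the floor of 0.0413 to 0.0623 CPM.

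Of all 17478 genes tested, 14772 (84.52%) moved in the same direction in both lines. Of the genes called lower, 3822 of 3823 were lower in both lines, and of those called higher, 3522 of 3525 were higher in both, which a call with the line as a block largely fixes. Groups of 2 libraries that did not overlap were found in 12983 of the 17478 genes tested (74.3%). They were found in 3780 (98.88%) of the genes called lower and 3454 (97.99%) of those called higher. The medians were farther from 0 in SW620. With 1 CPM added before the ratio, the median log2 ratio of the genes called lower was -0.75 in SW620 and -0.58 in SW620-TET2CD, and of those called higher 0.66 and 0.50. The mitosis list had a median of -2.86 in SW620 and -1.79 in SW620-TET2CD, while the HIF targets had 0.97 and 1.24. With 1 library per line and day, the difference between the lines was not tested. DEFA5, a defensin picked after its values were seen, was the gene farthest from the diagonal, at 4.72 and 0.291 CPM on day 9 and at 14.9 CPM in SW620-TET2CD on day 12, while its SW620 value of day 12 lay under the floor of 3 counts.

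**Figure D4:**
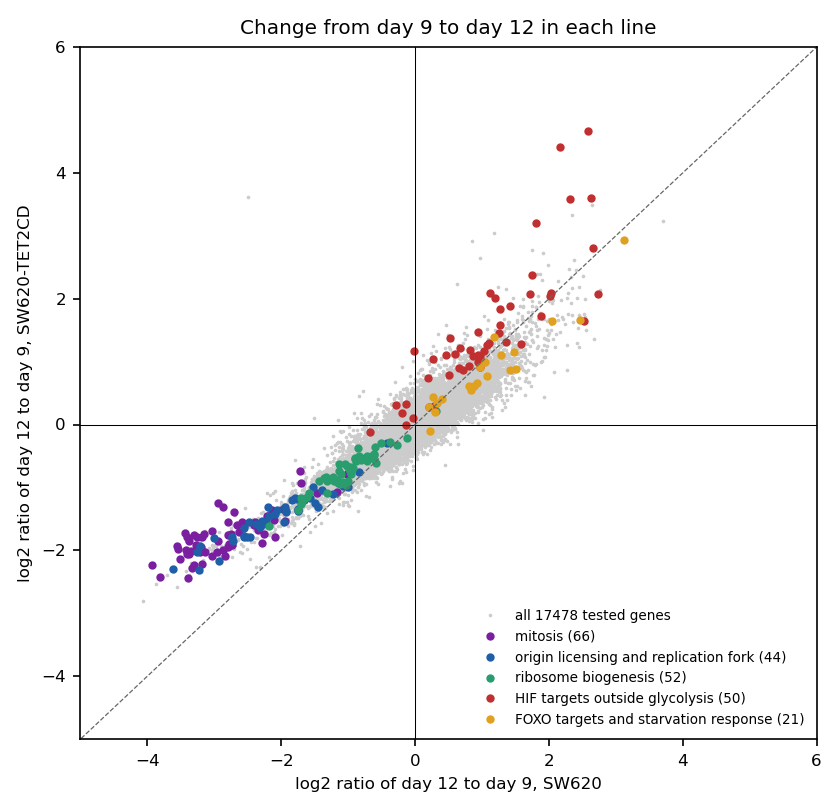
Log2 ratio of day 12 to day 9 CPM, with 1 CPM added, in SW620 (horizontal axis) and in SW620-TET2CD (vertical axis) for the 17478 tested genes in grey, with 5 gene lists in colour. Mitosis and replication genes lay at the lower left and HIF targets at the upper right, with list medians of -2.86 and -1.79 for mitosis and 0.97 and 1.24 for HIF targets.

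The step from day 9 to day 12 held more calls than the steps on either side of it, which share its libraries. Day 9 against day 6 gave 155 calls (0.887%) and day 15 against day 12 gave 2266 (13.0%), against 7348 (42.0%). A test of the difference between steps called 1221 genes (6.99%) for day 12 minus day 9 against day 9 minus day 6, 433 (2.48%) in the positive and 788 (4.51%) in the negative direction, or 740 and 655 with upper-quartile factors. Against the step from day 12 to day 15 it called 2223 genes (12.7%), 1102 (6.31%) positive and 1121 (6.41%) negative, or 1928 and 692 with upper-quartile factors and 1144 and 749 with library totals. These counts rested on the cell limits and on single libraries. Without the upper limits they were 62, with 54 positive and 8 negative, and 302, with 274 positive and 28 negative, so that neither split between directions held. They fell to 0 without the SW620 library of day 9 for the first and to 374 without the SW620 library of day 12 for the second. At 0, 1387 of 18167 genes had an unadjusted p under 0.05 by edgeR and the smallest adjusted p was 0.0697.

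The course over the 4 days is given for genes of each kind. PLK1 was at 77.2 and 95.5 CPM on day 6, at 93.9 and 67.9 on day 9, at 5.24 and 13.6 on day 12 and at 11.6 and 8.55 on day 15. The step to day 12 differed from that before it by -3.07 ± 0.54 (log2, adjusted p = 0.0074 by edgeR) and from that after it by -3.28 ± 0.63 (adjusted p = 0.00773). Like the counts above, these differences rest on the cell limits and on single libraries. Without the upper limits PLK1 had a log2 fold change of -1.66 from day 9 to day 12, against -3.14 within them. CA9 was at 28.2 and 12.9 CPM on day 6, 34.9 and 17.8 on day 9, 220.3 and 225 on day 12 and 162 and 111 on day 15, and it fell between the last 2 days (log2 fold change -0.78, adjusted p = 0.0461). VEGFA, at 8.32 and 6.71 CPM on day 6 and 109.9 and 86.1 on day 15, was not called in the step after day 12 (adjusted p = 0.247). TXNIP went on rising, from 161 and 159 CPM on day 6 to 2724 and 1886 on day 15, with a log2 fold change of 1.35 from day 12 to day 15 (adjusted p = 0.0045). CDH1 also went on rising after day 12 (log2 fold change 0.68, adjusted p = 0.00969).

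NDUFA4L2 rose already between day 6 and day 9, from 0.273 and 0.141 CPM to 7.02 and 3.58 CPM (adjusted p = 0.00931), and fell after day 12, to 21.3 and 41.8 CPM on day 15 (adjusted p = 0.0395). LEMD1 rose again after day 12, to 292 and 152 CPM on day 15 (adjusted p = 0.0062). ZFP36 and LPCAT4, an enzyme of phospholipid synthesis, had among the largest differences from the step before. ZFP36 was at 12.1 and 9.49 CPM on day 6, above its 3.86 and 7.04 CPM on day 9, and LPCAT4 went from 12.4 and 9.94 CPM on day 6 to 4.55 and 6.00 on day 9 and 29.3 and 15.5 on day 12. By list, 0 of 66 mitosis genes were called between day 6 and day 9, and after day 12, when 6.56% of genes tested rose and 6.40% fell, 4 rose. Of the 50 HIF targets 4 were called between day 6 and day 9, against 0.887% of genes tested. Among them, besides NDUFA4L2, DDIT4 rose (log2 fold change 2.40, adjusted p = 0.0268 by edgeR). NDRG1 did too (2.04, adjusted p = 0.0423), as did MIR210HG outside the list (2.28, adjusted p = 0.00644). After day 12, 2 of the HIF targets rose and 8 fell. Of the 14 integrins 12 rose after day 12.

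**Figure D5:**
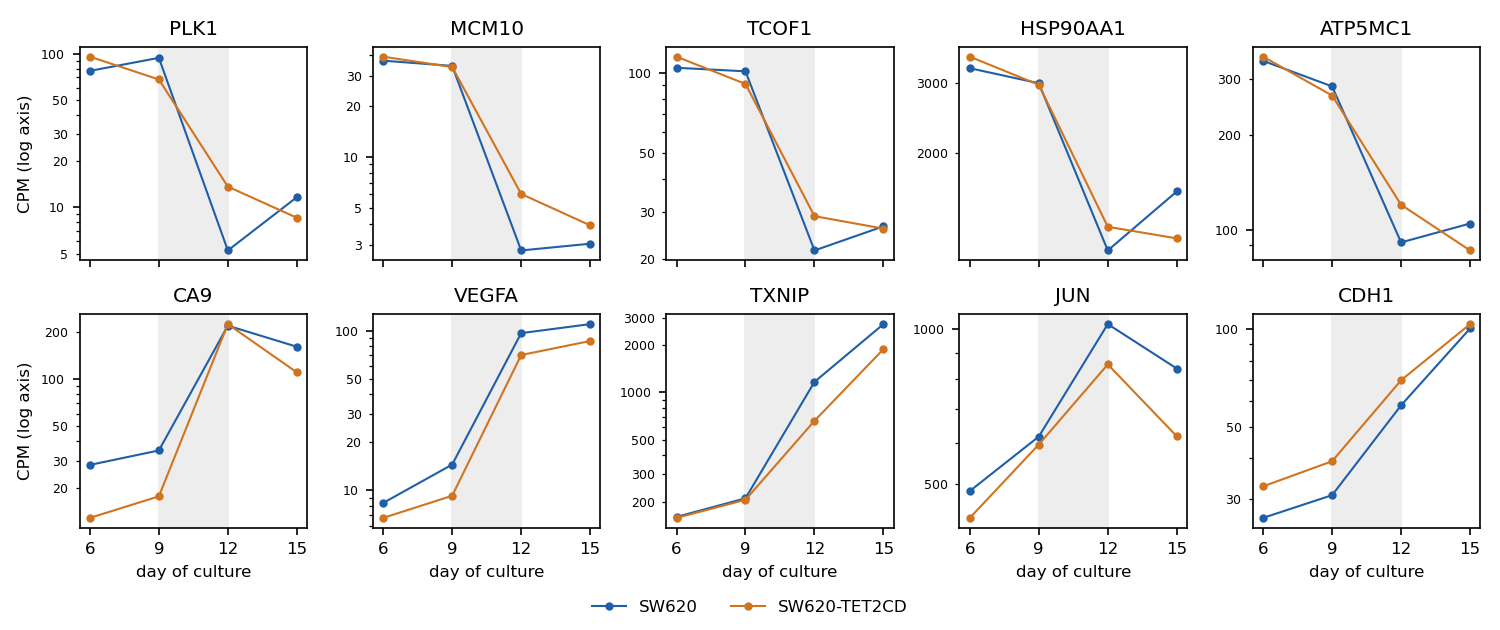
CPM on a log axis of 10 genes by day of culture in both lines, 1 library per point, with the interval from day 9 to day 12 shaded. PLK1, MCM10, TCOF1, HSP90AA1 and ATP5MC1 dropped within the shaded interval, CA9 and VEGFA rose within it, and TXNIP reached 2724 and 1886 CPM on day 15.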

How the data were processed

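The deposited counts are whole-number UMIs per gene and barcode for 36601 genes, made by the authors with Cell Ranger 4.0 on GRCh38 from 10x 3′ v3.1 libraries, 1 matrix per library, without normalization. The 8 single-cell libraries held 67056 barcodes, and the bulk samples of the series were not used here. Cell limits were those of the study, applied here to each matrix as deposited. The study's methods describe bringing the libraries to the same sequencing depth first, which was not done here, and the study reports fewer cells. UMIs were summed per library and fitted with edgeR 4.0.16 (R 4.3.3; TMM, filterByExpr, quasi-likelihood test, Benjamini-Hochberg threshold 0.05) on all 8 libraries with day and line as factors. CPM use TMM-scaled library totals and are not scaled by length. Each SE is the size of the log2 fold change divided by the square root of the F statistic of its test. Scripts were tested on simulated data. Alternatives included DESeq2 1.42.0, other scalings, filters and cell limits, and each library left out. Genes were named by rule. The first were the 12 largest calls in each direction with a mean of at least 8 CPM and the same direction in both lines. The others were up to 3 calls per list and direction with a mean of at least 2 CPM and the genes the study follows. To these came the 3 largest differences between steps in each direction. Members given to complete a short count, ORC1 and DEFA5 were chosen after their values were seen. The comparison and the 53 gene lists were chosen with earlier results of these data known. Promoter windows and gene starts are from RefSeq. Some list members are counted but not reported here by name.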

Additional observations from a re-analysis of the deposited data

Results flagged for a closer look

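In 4 named genes and 5 gene lists the log2 ratio of day 12 to day 9 had opposite signs in the lines, though in VIM the ratio of SW620-TET2CD rounded to 0.00. With 1 library per line and day, the difference was not tested, and none of the 4 genes was called in the fit over both lines. The log2 ratio of day 12 to day 9, with 1 CPM added, was 0.45 in SW620 and -0.64 in SW620-TET2CD for TET2, so that SW620-TET2CD minus SW620 was -1.10. For VIM it was -0.47 and 0.00, a difference of 0.47. For EPCAM it was 0.16 and -0.04, a difference of -0.20, and for PPARD 0.01 and -0.05, a difference of -0.06. The log2 ratio of the share of UMIs taken by glycolysis genes was -0.20 in SW620 and 0.38 in SW620-TET2CD, a difference of 0.58. For cholesterol synthesis and uptake it was -0.51 and 0.08, a difference of 0.59. For fatty acid synthesis and lipid droplets it was -0.30 and 0.01, a difference of 0.31, and for keratins -0.25 and 0.14, a difference of 0.40. For the nuclear genes of OXPHOS complex II it was 0.07 and -0.13, a difference of -0.20.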

How the results depend on the processing

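The 7348 calls came to 5452 to 8302 under the 12 alternatives that kept all libraries of both days, and no gene called in both was called in opposite directions. They ranged from 3395 to 9110 when each library was left out, the lowest being 3395 without SW620 day 9, 3625 without SW620 day 12 and 4266 without SW620-TET2CD day 9. The 2811 calls of at least 2-fold came to 1743 with every barcode and to 1829 to 3224 with a library left out, the lowest without SW620 day 12. The differences between steps depended most on the settings. The 1221 calls against the step before came to 2253 with no filter on low counts, and, in alternatives chosen after seeing the data, to 316 with no line block, 17 with every barcode, 62 without upper limits and 648 with a mitochondrial limit of 20%. With a library left out they ranged from 0 without SW620 day 9 to 3304 without SW620-TET2CD day 15, with 670, 472, 388, 501 and 3281 without SW620 day 6, SW620-TET2CD day 6, SW620-TET2CD day 9, SW620 day 12 and SW620 day 15. The 2223 calls against the step after came to 913 with no line block, 212 with every barcode, 302 without upper limits and 1373 with thinned cells, also chosen after seeing the data. They ranged from 374 without SW620 day 12 to 4626 without SW620-TET2CD day 15, with 720, 970 and 1041 without SW620 day 9, SW620-TET2CD day 9 and SW620-TET2CD day 12. Leaving out a library also removes residual degrees of freedom, and other causes were not tested.

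Of 233 named genes with a call, 197 were called under all alternatives other than leaving out 1 library. Fewer were called with each library left out, and 0 changed direction in any alternative. Of the 53 list medians, 44 moved by more than the SD between the lines with upper-quartile factors, 31 with library totals, 27 with every barcode and 21 without upper limits, and 17, 20, 27 and 17 did without SW620 day 12, SW620 day 9, SW620-TET2CD day 12 and SW620-TET2CD day 9. Some named genes without a call gained one with their sign kept. They numbered 2 with upper-quartile factors and 3 in the fit on the 4 libraries of day 9 and day 12 alone. The genes whose sign turned had no call. TET2 came to 0.03 with DESeq2, 0.07 with upper-quartile factors, 0.03 with library totals and, with a library left out, to -0.66 to 0.59, the lowest without SW620 day 12 and the highest without SW620-TET2CD day 12 (0.18 without SW620-TET2CD day 9). CCND1 came to 0.10, 0.05 and 0.01 with upper-quartile factors, library totals and thinned cells. CTNNB1 came to 0.09 and 0.03 with upper-quartile factors and library totals, and -0.30 to 0.09 with a library left out (0.05 without SW620-TET2CD day 9). With a library left out VIM came to -0.50 to 0.02, the highest without SW620 day 12, and EPCAM to -0.11 to 0.21, the lowest without SW620 day 9. PPARD came to 0.15, 0.10, 0.04, 0.01 and 0.04 with upper-quartile factors, library totals, every barcode, no upper limits and without the 8% of cells with most UMIs, and to -0.06 to 0.00 with a library left out. The line block paired day 9 and day 12 within a line, and without it 6024 genes were called. No replicate numbers could pair libraries beyond that, with 1 library per line and day. Intervals were not drawn from reads, and a gene under the floor of 3 counts was not detectable at this depth.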
